A study of Mus musculus with 6 samples.

Results

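Aminoacyl-tRNA synthetases are the enzymes that join each amino acid to its tRNA, and 36 of their genes were followed here in wild-type and E4f1 knockout brains. E4f1 is the gene of a zinc finger transcription factor, and its transcript fell to 0.330 of the wild-type level in the knockout brains. The 36 genes were taken by symbol from the 24848 genes of the deposited tables: 20 genes of cytosolic enzymes and 16 genes, with symbols ending in 2, of mitochondrial ones. All 36 were found and all passed the filter on low counts, as members of the 15848 genes tested. Messenger RNA was sequenced from the brains of 3 wild-type (WT) and 3 E4f1 knockout (KO) mouse embryos at stage E14.5. The age and tissue are shared by both groups, and no treatment is named. The sources used here do not give the exons that the allele removes, any Cre driver, the strain or the litters. Each library carries its own animal number, and p-values measure the spread between these brains.

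A cytosolic synthetase charges tRNAs for ribosomes in the cytosol, and a mitochondrial synthetase, encoded in the nucleus and imported, charges the tRNAs that mitochondria make for themselves. Most amino acids have a separate gene for each compartment, but Gars (glycine) and Kars (lysine) make both forms from 1 gene, and Eprs carries the glutamate and the proline enzyme on a single chain. The enzymes fall into class I and class II by the fold of their catalytic domain, and a set of cytosolic ones is held in the multi-synthetase complex. Many cytosolic synthetase genes are known targets of ATF4, the transcription factor of the integrated stress response, which binds C/EBP-ATF response elements. The series' title links E4F1 to pyruvate metabolism, to the tRNA-modifying Elongator complex and to translation fidelity in the developing brain.

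Promoter sequences are shown because matches to one known element were found in several cytosolic members. RefSeq promoters (GRCm38.p6), each of 250 bases before and 50 bases after a transcription start, were matched for 27 members, 13 cytosolic and 14 mitochondrial. Cars, Hars, Lars, Nars, Rars, Vars, Wars, Hars2 and Pars2 had no entry. The C/EBP-ATF response element was searched as TGATGNAA on both strands. It was found in 5 of the 13 cytosolic genes (38.5%) and in 0 of the 14 mitochondrial genes, against 3.97% of all 32851 RefSeq promoters (1304 of them). Members were counted by gene, with a match in any entry, and the share of all promoters was counted by entry. For 14 genes a count of 0 lies near that share, so it is not read as a trait of the mitochondrial genes. A match is a string of letters and does not show that a factor binds there, and a window without one says nothing of the factor. The CRE-like element TGACGTNA, searched the same way, was found in none of the 27 genes and in 2.93% of all promoters. For each of the 5 genes, the match nearest the start is given below in a window of 30 bases, in the direction of the gene, with the match in capitals.
Yars, chr4:129189895-129189924, plus strand: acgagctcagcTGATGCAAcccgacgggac
Gars, chr6:55037960-55037989, plus strand: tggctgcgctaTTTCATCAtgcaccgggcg
Aars, chr8:111033840-111033869, plus strand: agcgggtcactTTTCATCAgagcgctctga
Iars, chr13:49682126-49682155, plus strand: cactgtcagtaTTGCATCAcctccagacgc
Tars, chr15:11399655-11399684, minus strand: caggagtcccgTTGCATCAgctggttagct

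Relative to the transcription start of the RefSeq promoter entry, counted as base 1, the first base of the match lay at -30 in Gars, at -15 in Tars, at 4 in Yars, at 8 in Iars, and at 10 in Aars. The 250 bases upstream of 3 starts show how these regions differ: Gars, whose match lies close to its start, Mars, which rose in KO without a match in this window, and Mars2, the mitochondrial counterpart of Mars. None of these stretches overlaps an annotated exon in GENCODE.
Gars, chr6:55037751-55038000, plus strand: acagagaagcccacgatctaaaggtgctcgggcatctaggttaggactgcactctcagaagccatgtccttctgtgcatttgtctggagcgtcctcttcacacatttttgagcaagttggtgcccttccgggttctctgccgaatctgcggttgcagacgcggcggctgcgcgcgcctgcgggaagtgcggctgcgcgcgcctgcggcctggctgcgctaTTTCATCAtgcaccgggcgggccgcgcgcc
Mars, chr10:127311787-127312036, minus strand: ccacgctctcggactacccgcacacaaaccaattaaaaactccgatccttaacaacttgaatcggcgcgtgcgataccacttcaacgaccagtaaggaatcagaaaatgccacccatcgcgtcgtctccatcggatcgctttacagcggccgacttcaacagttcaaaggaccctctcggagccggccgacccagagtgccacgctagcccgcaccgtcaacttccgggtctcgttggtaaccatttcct
Mars2, chr1:55236927-55237176, plus strand: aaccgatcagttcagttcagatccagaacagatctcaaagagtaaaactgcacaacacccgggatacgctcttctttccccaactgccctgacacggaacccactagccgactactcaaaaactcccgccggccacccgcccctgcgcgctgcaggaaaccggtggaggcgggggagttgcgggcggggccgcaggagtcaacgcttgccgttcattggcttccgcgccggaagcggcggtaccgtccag
The 5 cytosolic genes with a match (Aars, Gars, Iars, Tars and Yars) had log2 fold changes between 0.42 and 0.68 with a median of 0.47, and in 5 of 5 all KO libraries lay above all WT libraries, as in 14.6% of all genes tested. The 8 cytosolic genes with an entry but no match (Dars, Eprs, Farsa, Farsb, Kars, Mars, Qars and Sars) ranged from 0.03 to 0.63 with a median of 0.18, and 5 of 8 had all KO libraries above WT. Mars and Farsa mark the ends of that second range, so the sets overlapped. These are counts on members chosen with earlier results known, and no test was made of them.

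Per transcript length, cytosolic synthetase transcripts were the more abundant class in every library. TPM is a level per length on a scale that sums to the same total in each library. The 20 cytosolic genes lay between 41.1 and 243 TPM over the 6 libraries, and 15 of the 16 mitochondrial genes lay between 6.40 and 38.8 TPM, so that these ranges did not meet. In WT, Gars (178 ± 2.19 TPM, SD, n = 3) and Kars (175 ± 12.3 TPM), the genes that serve both compartments, had the highest mean levels of the cytosolic set and did not differ from each other beyond their spread. Aars (127 ± 4.22 TPM) and Nars (117 ± 3.31 TPM) followed, and Cars had the lowest level, at 42.2 ± 0.960 TPM. Among the 15 mitochondrial genes, Iars2 had the highest WT mean at 35.3 ± 2.20 TPM and Nars2 the lowest at 7.55 ± 0.531 TPM. In KO, Gars (235 ± 10.6 TPM) and Cars (67.2 ± 2.88 TPM) were still the highest and lowest cytosolic genes and Iars2 (37.6 ± 1.77 TPM) the highest of the 15 mitochondrial genes, but the lowest was Ears2, at 6.65 ± 0.245 TPM.

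**Figure D1:**
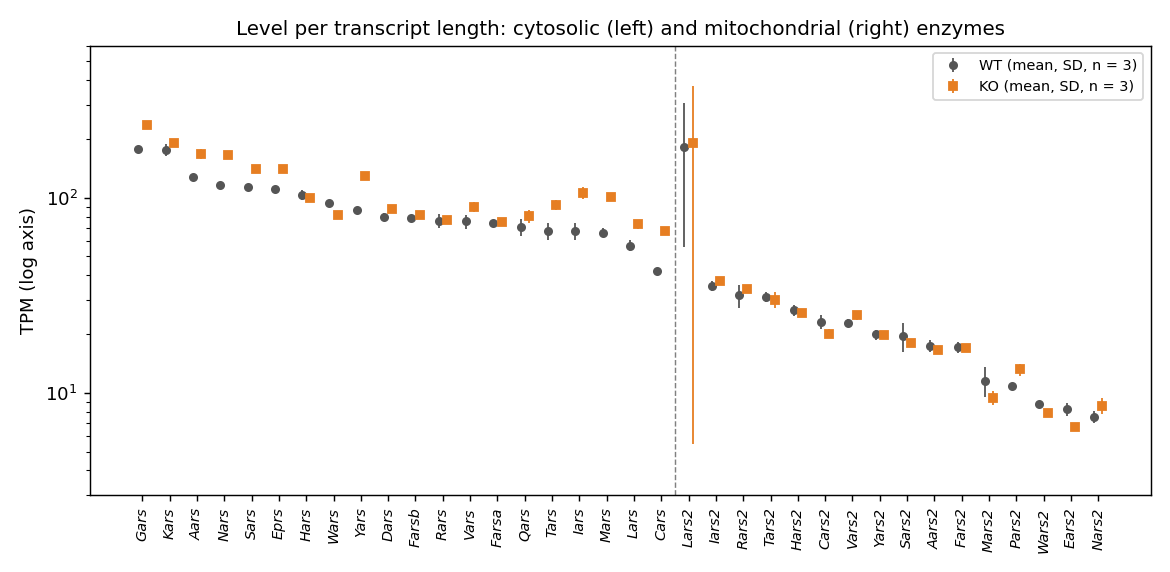
TPM (log axis) of each synthetase gene, as the mean and SD of 3 WT (grey circles) and 3 KO (orange squares) libraries, with cytosolic genes left of the dashed line and mitochondrial genes right of it. Apart from Lars2, whose SD spans much of the axis, no mitochondrial gene reached the level of the lowest cytosolic gene, Cars.

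The gene for the mitochondrial leucine enzyme, Lars2, stood apart from its class. In counts scaled to a common library size by TMM (CPM), its WT libraries, replicates 1 to 3 in order here and below, held 132, 190 and 478 and its KO libraries 150, 98 and 609. WT 3 and KO 3 were the high libraries in their groups, and the groups overlapped. Rn45s, the precursor of ribosomal RNA and thus a sign of carry-over past the mRNA selection, was measured at 14454, 25368 and 54970 CPM in WT and at 5020, 6243 and 20592 CPM in KO (log2 fold change -1.57 ± 0.70, edgeR adjusted p = 0.283). It too was highest in WT 3 and KO 3 within their groups, and its part in Lars2 or in the other synthetase values was not tested. For Lars2, the highest library exceeded the lowest 6.21-fold. The log2 fold change of Lars2, 0.10 ± 0.79 (SE), had a 95% interval from -1.81 to 2.01, and turned to -1.11 without KO 3. Lars2 was therefore left out of the class sums, and class medians are given with and without it.

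In KO brains transcripts of several cytosolic synthetases rose, and no mitochondrial one passed the test. Of the 20 cytosolic genes, edgeR called 7 higher (Cars, Yars, Mars, Nars, Gars, Aars and Iars) and 0 lower, and of the 16 mitochondrial genes it called 0 in either direction. Over all 15848 genes, 0.511% were called higher, 0.492% lower and 1.0% in either direction. Before adjustment, 12 cytosolic genes were higher and 1 lower at p below 0.05, as were 1 and 1 of the mitochondrial genes, against 10.3% and 9.31% of all genes (19.6% in either direction). DESeq2 called 11 cytosolic genes higher, 0 lower, and 0 mitochondrial ones, against 4.82% higher, 4.06% lower and 8.89% in either direction over the genes it adjusted. The median log2 fold change was 0.35 for the cytosolic genes, -0.01 for the mitochondrial genes (-0.02 without Lars2) and -0.00077 for all genes tested. Fold changes were positive for 18 of 20 cytosolic and 8 of 16 mitochondrial genes, and for 49.9% of all genes. Without Gars and Kars, which serve both compartments, 6 of 18 cytosolic genes were called higher, with a median of 0.35. The median SE was 0.063 in the cytosolic and 0.098 in the mitochondrial genes, so a change of like size was harder to call in the latter. In bulk tissue, a change in RNA per cell and a change in the share of cells of a type cannot be told apart.

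**Figure D2:**
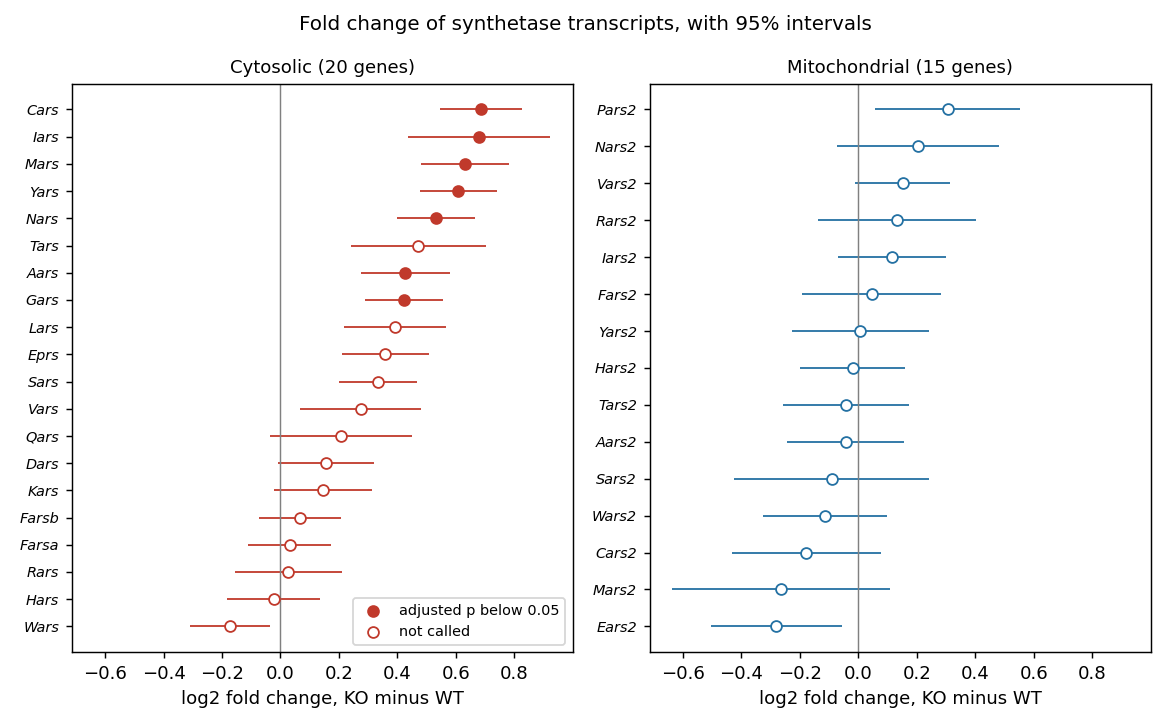
Log2 fold change (KO minus WT) of the 20 cytosolic and 15 of the 16 mitochondrial synthetase genes, with 95% intervals from edgeR; filled points were called at an adjusted p below 0.05. The filled points are 7 cytosolic genes, from Gars to Cars, and Lars2 is left out because its interval runs from -1.81 to 2.01.

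The shift of the cytosolic class was of like size in each KO brain. The median log2 CPM of the 20 genes, each set against its own WT mean, was 0.05, -0.05 and 0.01 for the WT libraries and 0.39, 0.30 and 0.34 for the KO libraries. For the 15 mitochondrial genes without Lars2 the same medians were 0.00442, -0.07 and 0.02 in WT and 0.02, 0.00606 and -0.02 in KO. The TPM of the 20 cytosolic genes summed to 1916, 1808 and 1860 in WT and to 2347, 2254 and 2243 in KO. Their sum was thus 1.23-fold higher in KO, with no overlap between the groups. The 15 mitochondrial genes summed to 298, 283 and 292 TPM in WT and to 298, 284 and 286 TPM in KO, with a KO to WT ratio of 0.994. The ratio of the cytosolic to the mitochondrial sum lay between 6.36 and 6.42 in the WT libraries and between 7.83 and 7.93 in the KO libraries.

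**Figure D3:**
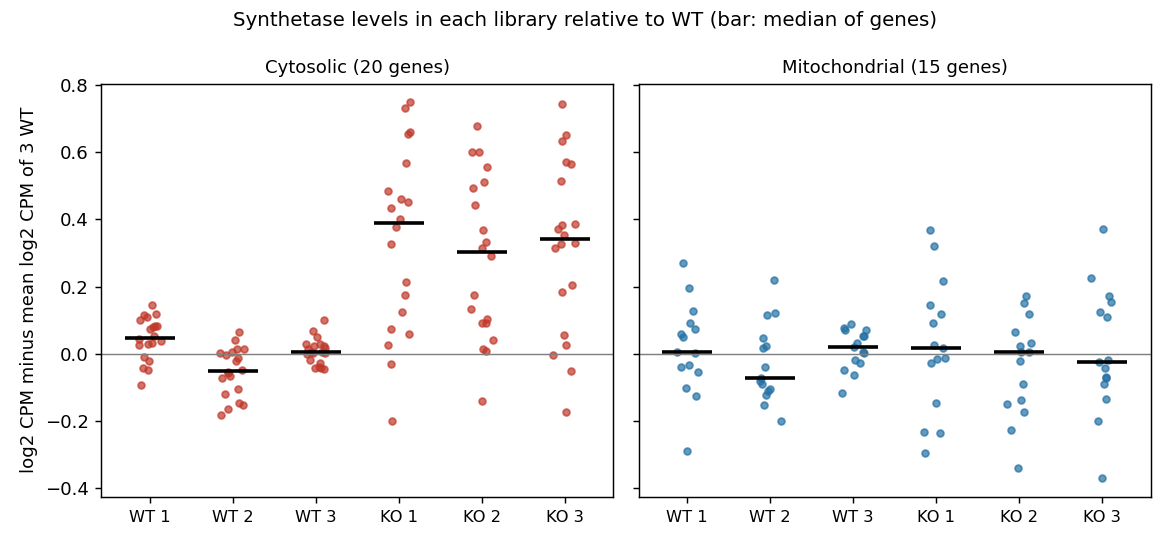
Log2 CPM of each synthetase gene in each library, minus its mean over 3 WT libraries (points), with the median of the genes as a black bar, for 20 cytosolic and 15 mitochondrial genes (without Lars2). The cytosolic medians of the KO libraries lie between 0.30 and 0.39, above those of WT, while the mitochondrial medians of the KO libraries lie between -0.02 and 0.02.

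Cars, the cysteine enzyme (chromosome 7, 143557230 to 143600090, GRCm38), had the largest fold change and the smallest p of the 36. It was measured at 46.0, 47.7 and 48.2 CPM in WT and at 78.6, 75.7 and 74.2 CPM in KO. All KO libraries lay well above all WT libraries, and the log2 fold change was 0.69 ± 0.06 (edgeR adjusted p = 0.00567). Yars, the tyrosine enzyme (chromosome 4, 129189734 to 129219240), stood at 90.2, 90.7 and 91.7 CPM in WT and at 143, 138 and 134 CPM in KO, again with a wide gap. Its WT libraries spanned less than 2 CPM, and it rose 1.52-fold (edgeR adjusted p = 0.00703).

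Mars, the methionine enzyme (chromosome 10, 127296221 to 127311786), was measured at 75.4, 68.1 and 71.6 CPM in WT and at 113, 109 and 111 CPM in KO. The KO libraries agreed closely, and the rise was 1.55-fold (edgeR adjusted p = 0.0109). Its exons share 68 bases with Ddit3, the gene of the stress transcription factor CHOP, on the opposite strand. The sources used here do not give the strand setting of the counting. Ddit3 itself was measured at 6.22, 6.20 and 6.44 CPM in WT and at 16.2, 13.9 and 13.6 CPM in KO, a difference of 8.31 CPM, and Mars differed by 39.3 CPM. The part of the shared bases in the value of Mars was not tested. Nars, the asparagine enzyme (chromosome 18, 64499655 to 64516515), went from 115, 114 and 109 CPM in WT to 167, 161 and 161 CPM in KO (1.45-fold, edgeR adjusted p = 0.0123).

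Gars (chromosome 6, 55038001 to 55079504) was measured at 151, 154 and 155 CPM in WT and at 210, 209 and 199 CPM in KO, and rose 1.34-fold (edgeR adjusted p = 0.0317). Aars, the alanine enzyme (chromosome 8, 111027778 to 111055569), was measured at 182, 176 and 171 CPM in WT and at 238, 248 and 225 CPM in KO, and also rose 1.34-fold (edgeR adjusted p = 0.0456). Of its 9282 exon bases, 1326 are shared with Exosc6 on the same strand. Exosc6 was measured at 9.12, 9.32 and 10.2 CPM in WT and at 9.29, 9.92 and 9.34 CPM in KO. The part of the shared bases in the value of Aars was not tested. Iars, the isoleucine enzyme (chromosome 13, 49682130 to 49734267), had values of 118, 98.2 and 120 CPM in WT and of 187, 163.8 and 187 CPM in KO. WT 2 and KO 2 were the low libraries of Iars in their groups, and its 1.60-fold rise was nearly that of Cars with a wider interval (log2 0.44 to 0.92, edgeR adjusted p = 0.0456).

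Fewer of these 7 genes were called whichever library was left out, although their fold changes kept their direction. The count of calls over all genes fell as well, from 159 to between 36 and 82. Over the 15 alternative fits, log2 fold changes of the 7 genes stayed between 0.39 and 0.75 and none turned negative. Leaving out one WT library reduced the count of 7 to 3, 4 or 1 (replicates 1 to 3), leaving out one KO library reduced it to 0, 3 or 2, and the replicate block left 4. Cars was called in 5 of the 6 fits that left out a library (adjusted p = 0.0700 without KO 1), Yars in 4 (0.0560 without WT 3 and 0.0846 without KO 1) and Mars in 3 (edgeR adjusted p = 0.0781, 0.110 and 0.0678 where WT 3, KO 1 or KO 3 was left out). Nars was called only without WT 2 (adjusted p = 0.0428, otherwise up to 0.133 in edgeR), and Gars, Aars and Iars in none of the 6 (edgeR adjusted p between 0.0723 and 0.260).

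**Figure D4:**
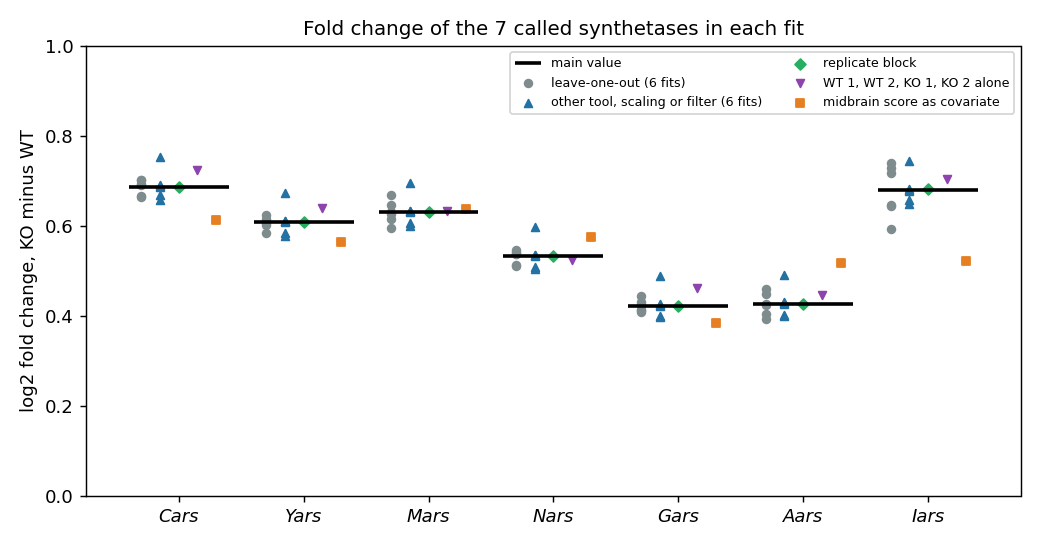
Log2 fold change (KO minus WT) of the 7 called synthetase genes in the reported fit (black bar) and in the alternative fits (symbols by kind of fit). Every value lies between 0.39 and 0.75, so that all alternatives kept the direction.

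The 13 cytosolic genes that were not called ran from positive to negative. In 7 of them all KO libraries lay above all WT libraries, with KO to WT ratios between 1.11 and 1.39. Over all genes tested, 14.6% had KO above WT without overlap and 13% KO below WT. Tars, the threonine enzyme, was measured at 70.0, 57.6 and 66.9 CPM in WT and at 90.4, 83.4 and 95.9 CPM in KO (log2 fold change 0.47 ± 0.10, edgeR adjusted p = 0.0857). Lars, the leucine enzyme, had 87.2, 77.2 and 78.6 CPM in WT and 111, 102 and 106 CPM in KO (0.39 ± 0.07, edgeR adjusted p = 0.0694). Both had groups that did not overlap, and DESeq2 called both higher (adjusted p = 0.00336 and 0.00117).

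Eprs, which charges glutamate and proline, was the most counted cytosolic gene, with 211, 199 and 210 CPM in WT and 273, 252 and 269 CPM in KO (0.36 ± 0.06, edgeR adjusted p = 0.0611). Sars, the serine enzyme, had 158, 152 and 152 CPM in WT and 200.2, 192 and 192 CPM in KO (0.34 ± 0.06, edgeR adjusted p = 0.0573). DESeq2 called Eprs and Sars too (adjusted p = 2.40e-04 and 2.44e-05). Vars, the valine enzyme, had a log2 fold change of 0.27 ± 0.09 and was called by neither tool, as were Dars (aspartate, 0.16 ± 0.07) and Kars (0.14 ± 0.07). The groups did not overlap in these 3 genes.

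Wars, the tryptophan enzyme (chromosome 12, 108860030 to 108894175), was the 1 cytosolic gene with all KO libraries below all WT libraries. It was measured at 99.8, 95.5 and 93.7 CPM in WT and at 83.9, 87.4 and 85.3 CPM in KO. Its log2 fold change was -0.17 ± 0.06, with a 95% interval from -0.31 to -0.04 and an edgeR adjusted p of 0.185, so that the test did not call it. In the 5 remaining genes the groups overlapped, at KO to WT ratios between 0.984 and 1.15: Hars (histidine), Rars (arginine), Farsa and Farsb, the subunits of the phenylalanine enzyme, and Qars (glutamine). The 95% interval of Farsa ran from -0.11 to 0.17 and that of Farsb from -0.07 to 0.21, so both lay below the median of the cytosolic class.

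Cytosolic genes that rose were found in both catalytic classes, and within and outside the multi-synthetase complex. Of 9 class I genes, 4 were called higher with a median log2 fold change of 0.39, and of 10 class II genes, 3 with a median of 0.25, with Eprs, which holds a domain of each, left out of both counts. Of the 8 genes of the multi-synthetase complex (Dars, Eprs, Iars, Kars, Lars, Mars, Qars and Rars), 2 were called, with a median of 0.28. Of the 12 genes outside it, 5 were called, with a median of 0.38. Calls in every set were above the 0.511% of all genes called higher. Within the complex the fold changes ran from 0.03 (Rars) to 0.68 (Iars), and outside it from -0.17 (Wars) to 0.69 (Cars), so the ranges overlapped nearly in full. The difference between these sets was not tested.

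No mitochondrial synthetase passed the test, by edgeR or by DESeq2, and most had intervals that lay below the median of the cytosolic class. Cytosolic log2 fold changes themselves ran from -0.17 to 0.69, so the classes overlapped. Without Lars2, KO to WT ratios ran from 0.823 to 1.24. The upper end of the 95% interval lay below the cytosolic median, a log2 fold change of 0.35, in 12 of the 16 genes. In 13 it lay below 0.42, the smallest log2 fold change of a called cytosolic gene. Pars2, the proline enzyme, had the highest fold change, with 9.52, 9.90 and 9.91 CPM in WT and 12.6, 11 and 12.6 CPM in KO (log2 fold change 0.31 ± 0.10, edgeR adjusted p = 0.191). Vars2, the valine enzyme, had 37.3, 37.2 and 40.1 CPM in WT and 44.3, 41.4 and 41.6 CPM in KO (0.15 ± 0.07). These were the 2 mitochondrial genes with all KO libraries above WT.

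Ears2, the mitochondrial glutamate enzyme, was the 1 mitochondrial gene with all KO libraries below WT, at 22.4, 19.4 and 19.9 CPM in WT and 16.7, 16.2 and 17.9 CPM in KO. Its log2 fold change was -0.28 ± 0.09 (edgeR adjusted p = 0.185). Its exons overlap 89 bases of Ubfd1 on the opposite strand, which was measured at 158, 165 and 149 CPM in WT and at 120, 133 and 113 CPM in KO, a difference of -35.7 CPM (edgeR adjusted p = 0.0957). The part of these shared bases in the value of Ears2 was not tested. In the other 13 genes the groups overlapped, Lars2 among them. Mars2 (methionine) and Cars2 (cysteine), whose cytosolic counterparts rose, had log2 fold changes of -0.26 ± 0.15 and -0.18 ± 0.11, and Yars2 (tyrosine) and Iars2 (isoleucine) of 0.01 ± 0.10 and 0.11 ± 0.08. Nars2 (asparagine), counted at 10.9, 9.71 and 11.1 CPM in WT and 13.2, 11.1 and 12.4 CPM in KO, had 0.20 ± 0.12. Aars2 (alanine), Tars2 (threonine) and Hars2 (histidine) had -0.04, -0.04 and -0.02, and turned to 0.02, 0.02 and 0.05 under scaling by library totals.

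Amino acid by amino acid, the ratio of the cytosolic to the mitochondrial transcript was higher in KO for most pairs, although no pair could pass a test. The ratio of the cytosolic to the mitochondrial gene was taken within each library, which removes the library scaling, for 17 pairs covering 16 amino acids. The KO minus WT difference of the log2 ratio was positive in 13 pairs and negative in 4, with a median of 0.41. In 9 pairs all KO libraries lay above all WT libraries, in 1 pair below, and in 7 the groups overlapped. Among single genes, 14.6% had all KO libraries above WT and 13% below, and no such share was computed over pairs of other genes. With 3 against 3 libraries, the exact permutation test cannot give a two-sided p below 0.1, which the 10 pairs without overlap reached (0.17 after Benjamini and Hochberg adjustment over the 17 pairs), so no pair could pass the test.

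The methionine pair had a log2 ratio of Mars over Mars2 of 2.93, 2.28 and 2.5 in WT and of 3.47, 3.32 and 3.57 in KO. Its difference was the largest, at 0.88 ± 0.21 (SE), and WT 1 was the library nearest to KO. The cysteine pair, Cars over Cars2, stood at 1.75, 1.56 and 1.69 in WT and at 2.63, 2.57 and 2.38 in KO, a difference of 0.86 ± 0.09. In TPM, Cars was 1.82 times as abundant as Cars2 in WT and 3.34 times in KO. The tyrosine pair moved from 3.17, 3.03 and 3.04 to 3.72, 3.66 and 3.66, a difference of 0.60 ± 0.05, and the isoleucine pair from 1.29, 1.19 and 1.31 to 1.87, 1.79 and 1.83, a difference of 0.57 ± 0.04. In the cysteine, tyrosine and isoleucine pairs the gap between the groups was wider than the range within either group, and in the methionine pair it was narrower than the range within WT.

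Eprs gave different balances with its mitochondrial counterparts. Against Ears2 (glutamate), its log2 ratio went from 3.23, 3.35 and 3.40 in WT to 4.03, 3.96 and 3.91 in KO, a difference of 0.64 ± 0.06. Against Pars2 (proline) it stood at 4.47, 4.33 and 4.403 in WT and at 4.43, 4.52 and 4.41 in KO, a difference of 0.06 ± 0.05 with overlapping groups. The threonine, alanine, serine and asparagine pairs had differences of 0.52 ± 0.11, 0.47 ± 0.07, 0.41 ± 0.12 and 0.33 ± 0.10, each with all KO libraries above WT.

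At the other end, the histidine pair had a difference of -0.00498 ± 0.10 and the pairs of Farsa and Farsb with Fars2 differences of -0.02 ± 0.06 and 0.02 ± 0.09, each changing sign when a library was left out. The tryptophan pair had -0.06 ± 0.06 and the valine pair 0.12 ± 0.08, with overlapping groups. The arginine pair was the 1 pair with all KO libraries below WT, as Rars over Rars2 went from 1.42, 1.57 and 1.49 to 1.40, 1.35 and 1.39, a difference of -0.11 ± 0.05. The leucine pair could not be read, because Lars2 varied so widely between libraries (0.53 ± 0.99).

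**Figure D5:**
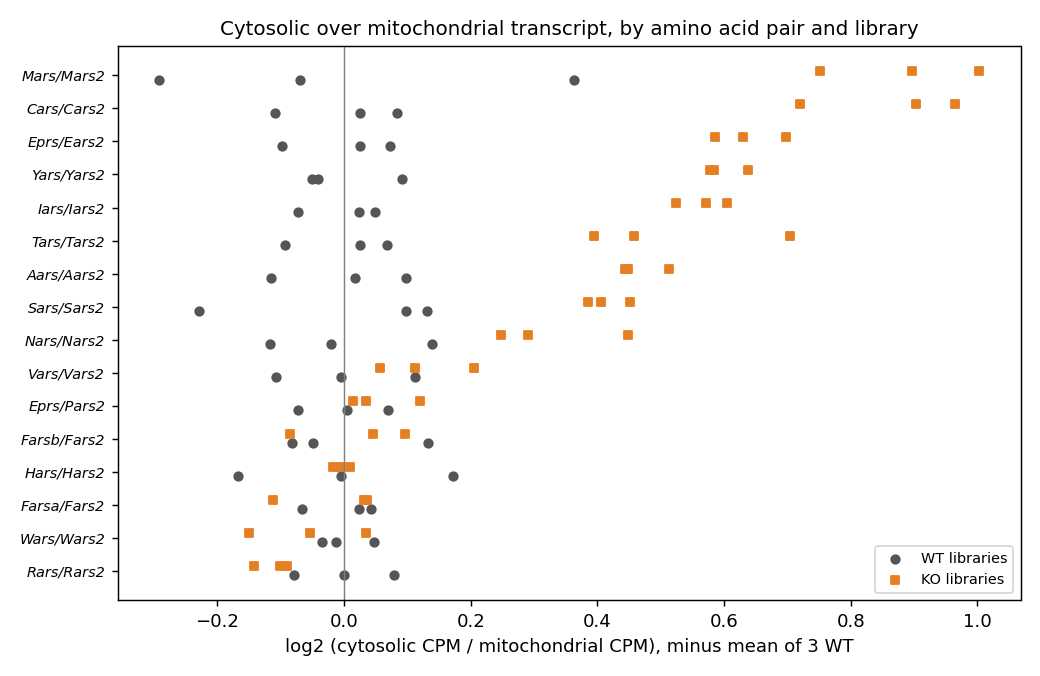
Log2 ratio of the cytosolic to the mitochondrial transcript in each WT library (grey circles) and KO library (orange squares), minus the mean of 3 WT libraries, for 16 of the 17 pairs (without Lars over Lars2). The KO libraries lie above all WT libraries in 9 pairs, from Nars/Nars2 to Mars/Mars2, and below them in Rars/Rars2.

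Among partners of the synthetases a single gene passed the test. The scaffold proteins of the multi-synthetase complex, Aimp1, Aimp2 and Eef1e1, had log2 fold changes of 0.19 ± 0.07, -0.12 ± 0.08 and -0.01 ± 0.08, and none was called. None of 7 genes that assist or proofread charging in the cytosol, nor of 6 mitochondrial ones, among them the subunits of the glutamine amidotransferase, was called. The median log2 fold changes of these lists were 0.09 and -0.05, and neither list held a gene at an unadjusted p below 0.05 or a DESeq2 call. Of 7 genes that bring charged tRNAs to the ribosome, 1 was called, against 1.0% of all genes tested in either direction. The called gene was Eef1g, a subunit of the complex that recharges elongation factor 1A. It was measured at 389, 353 and 373 CPM in WT and at 170, 172 and 203 CPM in KO, so the groups lay far apart. It fell to 0.489 of its WT level (log2 fold change -1.03 ± 0.09, edgeR adjusted p = 0.00651), and its adjusted p was 0.0700 without KO 1. The factor itself, Eef1a1, had 0.25 ± 0.09 (edgeR adjusted p = 0.223), and its mitochondrial counterpart Tufm -0.04 ± 0.06.

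Facts of the libraries that bear on these values are as follows. Expected counts summed to between 42113465 and 74064707 per library. E4f1 lay between 20.7 and 21.6 CPM in WT and between 6.92 and 7.12 CPM in KO, and fell to 0.330 of its WT level (edgeR adjusted p = 0.00142). Markers of neural progenitors (6 genes, summed to between 1094 and 1632 CPM in each library) and of neurons (6 genes, between 5144 and 7157 CPM) were expressed throughout, as the label of brain implies. The neuronal sum was lower in KO, at 5144 to 5304 CPM against 6102 to 7157 CPM in WT. Of its 6 genes, Tubb3, Dcx, Stmn2 and Map2 were lower without overlap, and Neurod2 and Neurod6 had log2 fold changes of 0.20 and 0.17 with overlapping groups. Microglial markers summed to between 132 and 169 CPM in KO and 68.3 to 106 CPM in WT, with 9 of 10 higher without overlap, and endothelial markers to between 273 and 375 CPM against 212 to 247 CPM, with 5 of 6. Of all genes tested, 14.6% were higher in KO without overlap and 13% lower, the shares against which the counts of each marker list stand. The midbrain genes En1, En2 and Pax5 summed to 69.9, 33.9 and 3.07 CPM in WT and to between 0.266 and 1.61 CPM in KO. No marker of these lists was at 0 in all libraries. Of 8 erythroid genes, 4 (the globin genes Hba-a1, Hba-a2, Hbb-bt and Hbb-bs, similar copies whose reads may be split between them) were higher in KO without overlap. The erythroid sums overlapped (309 to 811 CPM in WT and 698 to 987 CPM in KO), but Hbb-y made up 374 CPM of WT 1, and without it they lay between 299 and 638 CPM in WT and between 688 and 959 CPM in KO. Meningeal sums overlapped and ranged from 458 to 5248 CPM within KO. In a fit that took the mean log2 CPM of these midbrain genes as a further term, chosen once the data had been seen, the cytosolic median was 0.33 and the mitochondrial median -0.04, and edgeR called no synthetase, with 9 cytosolic genes higher at an unadjusted p below 0.05. Cars then had 0.61 ± 0.12 and Mars 0.64 ± 0.14. The part of the neuronal, microglial, endothelial and erythroid markers in the synthetase values was not tested.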

How the data were processed

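Per the submitters' processing notes, the tools were RSEM 1.2.28, STAR 2.5.3a, Trimmomatic and FastQC and the builds mm10 and GRCm38. Per the labels' protocols, a stranded mRNA kit was used. The sources used here do not give the tools' settings. Per the file headers, the deposited tables hold an expected count for each gene (estimated read pairs), a TPM and an FPKM, all made by the authors. The FPKM values deposited by the authors were not used. The expected counts deposited by the authors were rounded to whole numbers (between 98.9% and 99.0% already lay within 0.005 of one) and tested with edgeR (version 4.0.16) by filterByExpr, TMM scaling and the robust quasi-likelihood F test, two-sided, with Benjamini and Hochberg adjustment over 15848 genes. A gene was called at an adjusted p below 0.05, and every adjusted p is edgeR's unless DESeq2 (version 1.42.0) is named. Fold changes are log2, KO minus WT, with SE and 95% intervals from the same fit, unless given as a KO to WT ratio or as -fold. Levels are TMM-scaled CPM or, between genes, the TPM values deposited by the authors. Pair ratios were compared by exact permutation tests, two-sided (scipy version 1.17.1). Alternatives were DESeq2, other scalings, no filter on low counts, limma (version 3.58.1) on log2 TPM with a pseudocount of 1 or 0.1, for genes reaching 1 TPM in 3 or more libraries, the replicate number as a block, 4 libraries alone, and each library left out. The 4 libraries were WT 1, WT 2, KO 1 and KO 2, which have animal numbers from 601 to 608. WT 3 and KO 3 have the numbers 164 and 242. The members, gene lists and motifs were chosen with earlier results of these data known. The text names by rule all members, E4f1, and the called and scaffold genes of the partner lists. Upstream sequences are by rule those of the called genes with the smallest p and of their mitochondrial counterparts, where an entry free of annotated exons existed. Eef1a1, Tufm, Rn45s and single marker genes were chosen after values were seen. So were the genes overlapping Mars, Aars, Iars2 and Ears2, and the windows around motif matches. Coordinates and promoters came from RefSeq (GRCm38.p6), in which all 36 symbols or synonyms matched. Exon overlaps came from GENCODE, where 13 members shared exon bases with another gene. Among those not named above, Iars2 shared 2034 bases with Rab3gap2 and Hars 195 with Hars2, each on the opposite strand. The edgeR script was tested on simulated data. One further sequence is not reported here.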

Additional observations from a re-analysis of the deposited data

How the results depend on the processing

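The 7 higher cytosolic synthetases became 11 with DESeq2, 4 with the replicate block, 0 in edgeR on WT 1, WT 2, KO 1 and KO 2 alone, 0 in edgeR with the midbrain term (chosen once the data had been seen), and between 0 and 4 when a library was left out. The fits with 0 calls, those on the 4 libraries, with the midbrain term and without KO 1, had 11, 9 and 11 higher and 0 lower cytosolic genes at an unadjusted p below 0.05 (1546, 741 and 1742 of all genes). Of all genes, 159 were called, 1437 with DESeq2, 247 and 241 with limma (pseudocounts 1 and 0.1), 66 with the replicate block, 0 and 0 on the 4 libraries and with the midbrain term, and between 36 and 82 without a library. No fit called a cytosolic gene lower or a mitochondrial gene in either direction. Libraries of the same replicate number correlated in their deviations by 0.131, 0.174 and 0.00121. KO 1 correlated best with WT 1 and KO 2 with WT 2, but KO 3 did not correlate best with WT 3. These correlations were weak and no label names pairs, so the numbers were not taken as pairs. The cytosolic median moved to 0.41 and the mitochondrial to 0.0592 with library totals, and the mitochondrial to -0.0467 in limma with pseudocount 0.1. The difference between the medians lay between 0.33 and 0.38 in all fits.

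Signs turned only in genes with small or, for Lars2, widely spread values. With library totals Hars had 0.0432, Aars2 0.0216, Hars2 0.0456 and Tars2 0.0227. In limma with pseudocounts 1 and 0.1, Fars2 had -0.00446 and -0.00461, Yars2 -0.0138 and -0.0144, and Lars2 -0.16 and -0.17. With the midbrain term Aars2 had 0.0146, Fars2 -0.0660, Sars2 0.14, Yars2 -0.0968 and Lars2 -1.41. On the 4 libraries Hars had 0.00938, Hars2 0.0142 and Lars2 -0.37, and with the replicate block Lars2 had -0.13. With a library left out, Hars lay between -0.0693 and 0.00963, Rars between -0.0319 and 0.0874, Aars2 between -0.0751 and 0.0156, Hars2 between -0.0706 and 0.0170, Lars2 between -1.11 and 0.83, Sars2 between -0.17 and 0.0559, Tars2 between -0.11 and 0.00397, and Yars2 between -0.0433 and 0.0331. Among the log2 ratios, Farsa over Fars2 then lay between -0.0481 and 0.0333, Farsb over Fars2 between -0.0225 and 0.0852, Hars over Hars2 between -0.0884 and 0.0812, and Lars over Lars2 between -0.0169 and 1.31. With pseudocounts 1 and 0.1 Farsa over Fars2 had 0.0141 and 0.0144, and with 0.1 Hars over Hars2 had 0.000622. The causes were not tested. Depth was at least 42113465 expected counts per library, and no member fell below 9.33 CPM in a library.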
